A study of Mus musculus with 2 samples.

Results

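A group of 8 mouse genes linked to monocytes was followed through macrophages of the small intestine: Plac8, Lsp1, Tppp3, Ccl17, Cd209a, Ifitm1, Ly6a and Fn1. They are 8 of the 27998 genes counted in the study. They were chosen by earlier measurements of the same cells, in which they stood as lower without the chemokine receptor gene Ccr2, so every difference between the 2 genotypes below is a description and carries no test. The data did not bear out that description for all of them. In the sum over all cells, 4 of the 8 genes (Plac8, Ccl17, Cd209a and Tppp3) were at least 2-fold lower in the knockout, where 3.12% of 7401 genes with a mean level of at least 10 CPM (a gene's transcript counts scaled to a total of 1000000) were. Ccl17, with a mean of 9.04 CPM, is not among those 7401 genes. Lsp1, Ifitm1 and Ly6a were lower by less than 2-fold, and Fn1 was higher.

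The measurements are single-cell transcript counts from droplets (10x Genomics, 3′ v2 chemistry). Transcript ends are captured with molecular barcodes, or UMIs, and a UMI count is a count of captured molecules. The wild-type library came from male C57BL/6J mice supplied by Janvier. The knockout library came from CCR2-/- mice of JAX strain 004999 bred in-house, with no sex given in the labels. For each, 3-4 small intestines were pooled, cleared of mucus and epithelium, digested, and sorted for live CD45+ cells positive for CD11b, MHCII and CD64 and negative for CD3, TCRb, B220, SiglecF, Ly6C and Ly6G. There was 1 library per genotype, so genotype cannot be told apart from supplier, pool, library or, as far as it is unknown, sex and age. The wild-type sample was split over 2 lanes, which are parts of the same pool and not replicates.

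Macrophages of the gut wall are renewed in large part by blood monocytes, which leave the bone marrow through the receptor CCR2 and take on macrophage genes after they enter the tissue. Some gut macrophages persist for long periods with little input from blood. Because the sort removed Ly6C-positive cells, classical monocytes with surface Ly6C were outside the sample, and monocyte-linked transcripts were read in cells that passed as macrophages.

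The genes lie at separate loci in GENCODE M21 (GRCm38). Plac8 is on chromosome 5 (100553725 to 100572245, minus strand), Lsp1 on chromosome 7 (142460809 to 142494867, plus), Ifitm1 on chromosome 7 (140967221 to 140969825, plus) and Ly6a on chromosome 15 (74994877 to 74998031, minus). Ccl17 (94810453 to 94812036, plus), Cd209a (3743397 to 3748984, minus) and Tppp3 (105467493 to 105471526, minus) are all on chromosome 8, and Fn1 is on chromosome 1 (71585520 to 71653200, minus). The stretches just upstream of 3 starts are shown, because these genes were among the 4 with the 2-fold difference and differed from each other in their relation to Ccr2. They are RefSeq promoter sequence on GRCm38.p6, 5′ to 3′ on the gene's strand, without annotated exon (150 bases, and 110 for Plac8), and capitals mark a motif match.
Plac8 chr5:100572246-100572355: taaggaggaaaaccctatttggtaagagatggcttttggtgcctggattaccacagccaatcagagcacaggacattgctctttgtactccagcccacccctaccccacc
Ccl17 chr8:94810303-94810452: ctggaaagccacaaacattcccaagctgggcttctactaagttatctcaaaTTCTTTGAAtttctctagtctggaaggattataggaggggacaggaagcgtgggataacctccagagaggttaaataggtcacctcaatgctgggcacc
Cd209a chr8:3748985-3749134: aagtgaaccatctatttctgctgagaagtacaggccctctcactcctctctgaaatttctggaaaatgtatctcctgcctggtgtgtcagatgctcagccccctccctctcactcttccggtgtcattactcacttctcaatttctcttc
Both strands were searched for AGGAAGT (the ETS motif), TTCNNNGAA (GAS) and TTGCNNAA (C/EBP). These letters occurred in 5.07%, 4.09% and 5.46%, respectively, of 32851 windows of 150 bases upstream of RefSeq starts. The only match was the GAS pattern from 99 to 91 bases upstream of Ccl17, in capitals above.

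After a filter of at least 200 genes and at most 10% mitochondrial UMIs, 3016 of 3054 wild-type cells (20678108 UMIs; 2109 cells in lane 1 and 907 in lane 2) and 2612 of 2774 knockout cells (7265386 UMIs) remained. The median depth was 6129 UMIs per cell in wild type and 2439 in the knockout, so levels are given as CPM and shares of cells at equal depth. The lanes shared 5 cell barcodes and the libraries 6. Ccr2 itself was at 347 and 293 CPM in the wild-type lanes and at 6.88 CPM in the knockout, a 48.1-fold difference that follows the labels, although whether the counted transcript end lies in the deleted part is not given in the sources used here. Macrophage genes were abundant in both libraries (C1qa at 4927 and 2919 CPM). The neutrophil genes S100a8 and S100a9, the eosinophil genes Epx and Il5ra and the mast cell genes Cpa3 and Mcpt1 had no UMI in either library. The other genes of these lists did have UMIs. In wild type and the knockout, the neutrophil genes Csf3r and Retnlg had 695 and 302 and 5 and 0 UMIs. The eosinophil genes Siglecf and Ccr3 had 57 and 51 and 7 and 4, and the mast cell gene Kit 31 and 16.

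Of the intracellular proteins, Plac8, a small cysteine-rich protein of myeloid and lymphoid cells, was at 216 CPM in wild-type lane 1, 284 in lane 2 and 113 in the knockout (95% exact Poisson interval 106 to 121). Both lanes lay above the knockout, and the 2 libraries differed 2.08-fold. Lsp1, an actin-binding protein of leukocytes that takes part in their movement, was at 55.8 and 62.6 CPM in the lanes and 31.0 in the knockout (27.1 to 35.3), 1.87-fold lower. Tppp3, a protein that binds and bundles tubulin, was at 81.6 and 75.3 CPM in the lanes and 17.1 in the knockout (14.2 to 20.3). It was 4.67-fold lower, with lanes that differed little from each other.

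Of the secreted and surface proteins of antigen-presenting cells, Cd209a, a C-type lectin of monocyte-derived and dendritic cells, was at 36.6 and 49.5 CPM in the lanes and 9.91 in the knockout (7.75 to 12.5), 4.07-fold lower. Ccl17, a chemokine that attracts T cells through CCR4, was at 20.3 CPM in lane 1 but 3.60 in lane 2 (2.26 to 5.45), which overlaps the knockout's 2.75 (1.68 to 4.25). With the pseudocount of 1 CPM used for all ratios, Ccl17 was at least 2-fold apart between the lanes and Ly6a (log2 of 1.0) lay at that limit, while 0.878% of all tested genes passed it. Its UMIs came from few cells: 48 wild-type and 3 knockout cells held any. A single cell of lane 1 held 100 of the 317 wild-type UMIs and 1 knockout cell 16 of 20. Without those 2 cells the levels were 10.5 and 0.551 CPM.

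Ifitm1, an interferon-induced membrane protein of the family that restricts virus entry, was at 48.5 and 45.0 CPM in the lanes and 27.4 in the knockout (23.7 to 31.5), 1.73-fold lower. A single lane 2 cell held 116 of that lane's 275 Ifitm1 UMIs, and 1 knockout cell held 43 of 199. Without those 2 cells, Ifitm1 was at 41.8 CPM in wild type and 21.5 in the knockout. Ly6a, the interferon-inducible surface protein also called Sca-1, was at 56.6 and 114 CPM in the lanes and 60.8 in the knockout (55.3 to 66.8). The knockout thus lay between the lanes. A single lane 2 cell held 249 of the 1520 wild-type Ly6a UMIs, and that cell also carried T cell, B cell and plasma cell genes. Without it and the highest knockout cell, Ly6a was at 61.5 and 58.7 CPM.

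Fn1 encodes fibronectin, a matrix protein that monocytes and fibroblasts both make. It was at 4.94 and 4.75 CPM in the lanes and 18.9 in the knockout (15.8 to 22.3), 3.86-fold higher, a direction opposite to the name under which the genes were gathered. Of all tested genes, 9.04% were at least 2-fold higher in the knockout, and the median over all of them was 0.18 on the log2 scale.

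**Figure D1:**
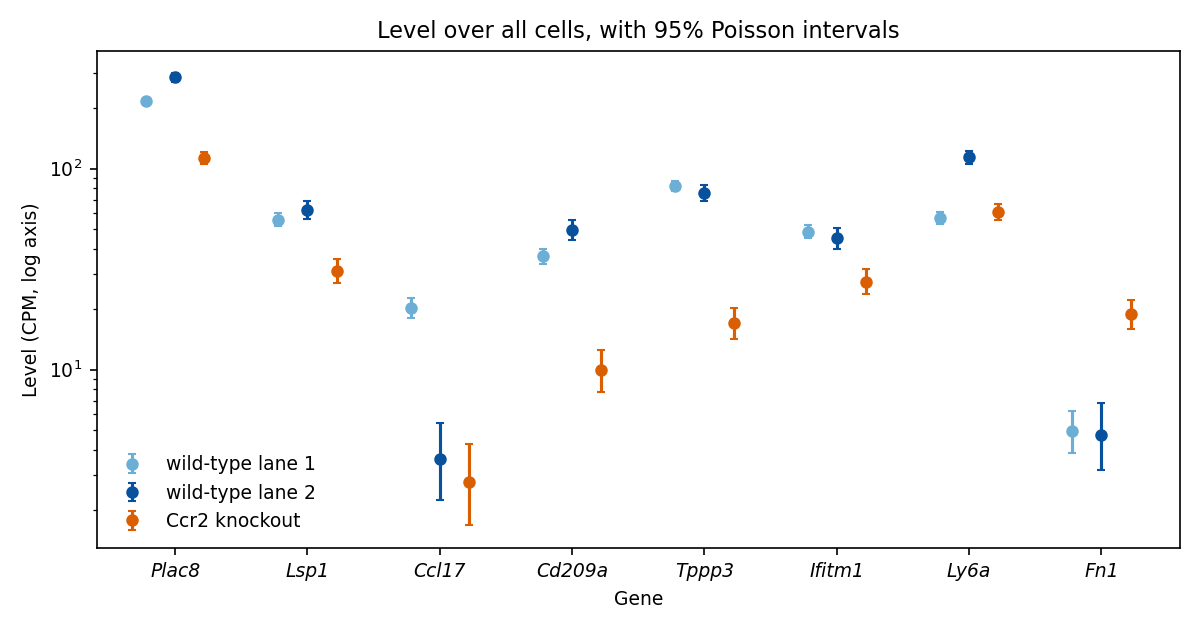
Level of the 8 genes over all cells that passed the filter, in CPM on a log axis, for the 2 wild-type lanes and the Ccr2 knockout; bars are 95% Poisson intervals and cover counting error only. Cd209a and Tppp3 in the knockout (9.91 and 17.1 CPM) lie well below both lanes, Ccl17 and Ly6a overlap or lie between the lanes, and Fn1 (18.9 CPM) lies above them.

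Cells that carried marker genes of other types held part of these transcripts, and unequally. Cells with at least 3 UMIs from at least 2 genes of a marker list were set apart for 6 lists, a cut chosen after the data were seen. Below, cells of other types are those that passed a cut, named by its list. Whether they are of that type, macrophages captured together with another cell, or macrophages holding such transcripts was not tested. The summed fibroblast genes (Col1a1, Col1a2, Col3a1, Dcn and Lum) were at 33.4 and 13.4 CPM in the wild-type lanes and 243 in the knockout, and all 4 that were tested were at least 2-fold higher there. The summed endothelial genes were at 52.3 and 51.2 CPM in the lanes and 184 in the knockout. Most of this sum was Pecam1, at 50.6 CPM in wild type and 137 in the knockout. Pecam1 was detected in 28.1% of knockout cells thinned to 3000 UMIs, while 0.804% of all knockout cells passed the endothelial cut. How its UMIs divide between endothelial and other cells was not tested. Cdh5, Kdr, Plvap and Cldn5 were at 0.0484 to 0.967 CPM in wild type and 1.24 to 23.8 in the knockout. In all, 13 wild-type and 43 knockout cells passed the fibroblast or endothelial cut. Another 17 and 16 cells lay just below the fibroblast cut and 70 and 66 just below the endothelial one.

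These few cells held 72.3% of the knockout's Fn1 UMIs (99 of 137) against 11.9% in wild type. They held 58.8% of its Ifitm1 against 5.0%, 39.6% of its Ly6a against 0.921%, and 32.3% of its Tppp3 against 0.849%. For Plac8 the shares were 17.1% and 0.962%, and for Lsp1 1.33% and 0.0837%. Cd209a and Ccl17 had no UMI in them in the knockout. Cells that passed the T cell, ILC or B cell cut held 10.2% of the knockout's Lsp1 UMIs against 3.10% in wild type. For Ly6a these shares were 7.01% and 17.6%. Plac8 was also found in cells with epithelial genes, where 44 wild-type cells held 11.6% of its UMIs and 9 knockout cells held 9.35%. The cell with the most Plac8 was of that kind in both libraries.

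Without any of the cells set apart (2901 wild-type and 2515 knockout cells left), Fn1 no longer stood out, at 4.45 CPM in wild type and 5.22 in the knockout. Ifitm1 was then at 47.3 and 11.9 CPM, a log2 ratio of -1.91 where it had been -0.77, and Tppp3 at 81.4 and 11.7 CPM (-2.69 against -2.16). Ly6a was at 61.2 and 33.3 CPM (-0.86), and both lanes (56.3 and 72.6 CPM) then lay above the knockout. Plac8, Lsp1, Ccl17 and Cd209a had log2 ratios of -1.32, -1.0, -2.14 and -1.92. In this setting 6 of the 8 genes were at least 2-fold lower, where 3.49% of 7310 genes above the same minimum were. Ccl17, one of the 6, again lay below it. The cut asks for a fixed number of UMIs, and knockout cells were shallower, so the 2 libraries were not cut at the same sensitivity.

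**Figure D2:**
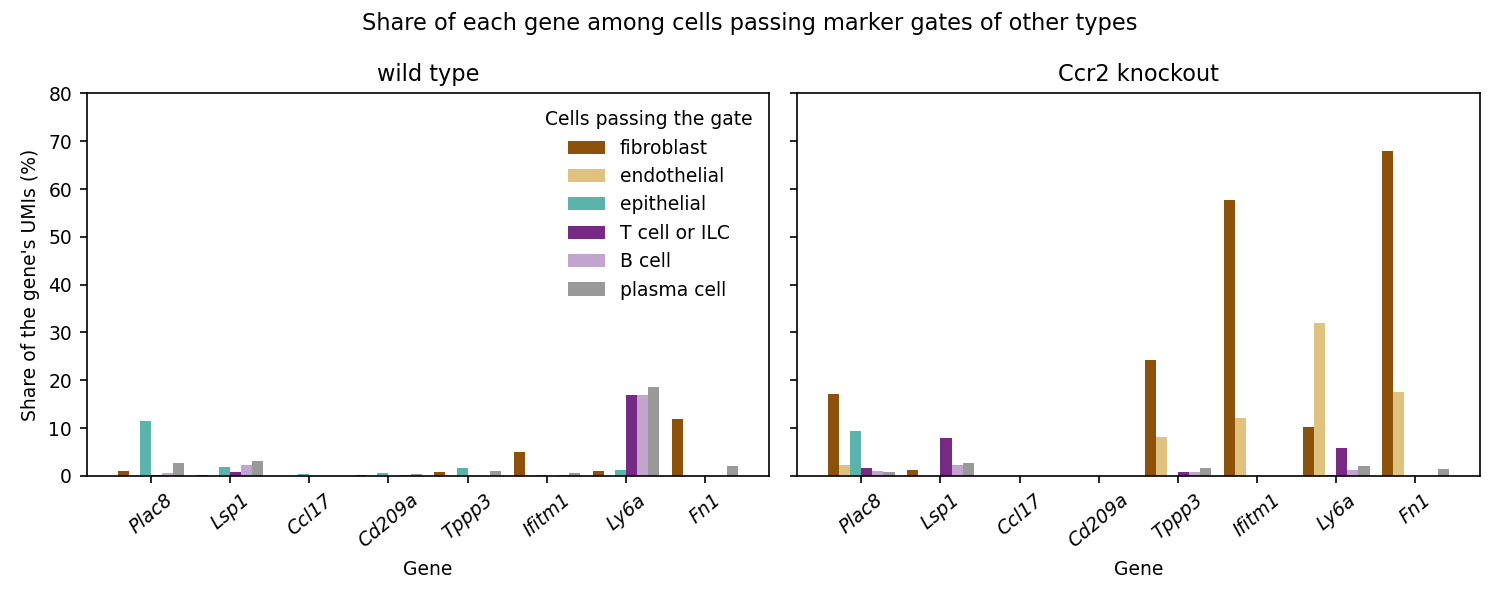
Share of each gene's UMIs (%) in cells that pass the marker cut of 6 other cell types, in wild type (left) and the knockout (right); a cell can pass more than 1 cut. In the knockout the fibroblast bars are tallest for Fn1 and Ifitm1 and the endothelial bar for Ly6a, while the wild-type bars stay below 20%.

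With each cell thinned at random to 1000 UMIs, 3015 wild-type and 2416 knockout cells could be compared (1 and 196 were too shallow). Plac8 was detected in 10.3% of wild-type and 4.59% of knockout cells, Lsp1 in 4.21% and 1.78%, and Tppp3 in 6.20% and 1.70%. Cd209a was detected in 3.22% and 0.704%, Ccl17 in 0.597% and 0.0414%, and Ifitm1 in 2.49% and 1.57%. Ly6a was found in similar shares, 4.68% (95% Clopper-Pearson interval 3.95 to 5.49) and 4.06% (3.30 to 4.92), and Fn1 in 0.332% and 0.993%. Without thinning the shares were higher, for example 28.5% and 8.58% for Plac8 and 18.2% and 8.23% for Ly6a, and those of Fn1 were close to each other, 1.82% and 1.80%.

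Cells with T cell, ILC or B cell genes, 32 in wild type (median 8017 UMIs) and 33 in the knockout (median 2316), gave a level of background at the same depth. None of them had a UMI of Cd209a, Ccl17, Ifitm1 or Fn1, which allows up to 10.9% and 10.6% of such cells (Clopper-Pearson). Plac8, Lsp1 and Ly6a were detected in 15.2%, 21.2% and 21.2% of the knockout ones, above their shares in all knockout cells. Lymphocytes are known to express all 3 genes, so these cells are no measure of free RNA for them.

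Ccr2 detection then divided the wild-type cells themselves. Cells with at least 3000 UMIs were thinned to 3000, and a cell was called Ccr2-positive with at least 1 Ccr2 UMI among those. This gave 904 positive and 1588 negative wild-type cells and 977 knockout cells. The minimum of 3000 UMIs left out 524 wild-type and 1635 knockout cells, so the knockout cells used were the deeper part of their library. Of the negative cells, 253 (15.9%) had a Ccr2 UMI outside the 3000, so the negative group still contained cells with Ccr2. The same cells had already been clustered when the genes were picked, so this split too describes the genes.

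Plac8, Lsp1, Tppp3 and Fn1 were at least 2-fold more often detected in Ccr2-positive cells. For genes detected in at least 2% of these cells, a minimum that Ccl17 and Fn1 did not reach, 0.692% of 8098 were. Lsp1 was found in 18.5% of positive and 4.53% of negative cells, 4.06 times as often, with ratios of 3.53 and 5.63 in the 2 lanes. Plac8 was found in 31.1% and 12.9%, Tppp3 in 25.3% and 11.6%, and Fn1 in 2.32% and 0.504%. Cd209a (10.8% and 6.42%) and Ly6a (15.9% and 9.07%) leaned the same way, with ratios of 1.69 and 1.76.

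Ifitm1 and Ccl17 were not more often detected in Ccr2-positive cells. Ifitm1 was detected in 4.98% of positive cells (3.65 to 6.60) and 6.17% of negative cells (5.04 to 7.47), and Ccl17 in 0.885% and 1.07%, so the intervals overlapped for both. The direction for Ccl17 changed with the random draw alone, with a log2 ratio of -0.23 here and 0.32 with another seed. Counted by UMIs, Ccr2-positive cells held 72.7% of the wild-type Plac8 UMIs, 70.2% of Lsp1, 70.0% of Fn1, 60.7% of Tppp3 and 54.5% of Cd209a, though they were 36.3% of the cells. They held 46.0% of Ly6a, 20.5% of Ifitm1 and 20.0% of Ccl17. The Ccl17 share rests on few cells. In cells with at least 6000 UMIs it was 7.84%, 32.7% and 73.9% when Ccr2 was called from 1000, 3000 and 6000 UMIs. The lane 2 cells with 249 Ly6a UMIs and 116 Ifitm1 UMIs had no Ccr2 UMI, which lowers the shares of these 2 genes in positive cells. Positive cells were also deeper before thinning, with a median of 8229 UMIs against 6586, and the part of depth in these shares was not tested.

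The knockout was next set beside the Ccr2-negative wild-type cells alone, at 3000 UMIs per cell. Plac8 was at 425 CPM in Ccr2-positive cells, 91.1 (82.7 to 100.1) in Ccr2-negative cells and 113 (101 to 125) in the knockout. Lsp1 was at 92.2, 22.3 (18.2 to 26.9) and 28.3 CPM (22.6 to 35.1). For both genes the knockout at this depth was not below the Ccr2-negative cells, with log2 ratios of 0.30 and 0.33. The ratios moved with depth: with cells thinned to 1000 UMIs they were -0.70 and -0.43. With 6000 UMIs, which only 100 knockout cells reached, they were 2.01 and 2.42. The depth changes both how many cells with Ccr2 remain in the negative group and which cells are used. At 1000 UMIs these were 2396 negative and 2416 knockout cells. What moved the ratios was not tested. Ly6a had 57.7 CPM in negative cells and 65.5 in the knockout (0.18), and its direction turned with the cells used, from 0.72 against lane 1 alone to -0.67 without fibroblast or endothelial cells. Without the cells of all 6 other types it had 38.5 and 30.7 CPM (-0.32).

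Tppp3 and Cd209a took a middle place. Tppp3 was at 127 CPM in positive cells, 46.8 (40.9 to 53.4) in negative cells and 17.1 (12.7 to 22.5) in the knockout, and Cd209a at 58.6, 27.9 (23.4 to 33.1) and 11.9 CPM (8.32 to 16.6). The knockout thus lay below even the Ccr2-negative cells, with log2 ratios of -1.40 and -1.16. For Cd209a the ratio stood close to 2-fold.

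Ifitm1 was at 27.7 CPM in positive cells, 60.9 (54.1 to 68.3) in negative cells and 23.5 (18.3 to 29.8) in the knockout, a log2 ratio of -1.33 to the negative cells. The lane 2 cell with 116 Ifitm1 UMIs had no Ccr2 UMI and is among the negative cells, and the interval does not cover its weight. Without the cells of other types the values in negative and knockout cells were 58.5 and 7.22 CPM (-2.85). Ccl17 was at 17.6 CPM in negative cells and 1.02 in the knockout (-3.20), from 84 UMIs in 17 cells and 3 UMIs in 1 cell. This rested on lane 1 (-3.67 against that lane alone). In lane 2, 0.207% of negative cells had a Ccl17 UMI and the log2 ratio was -0.24. In all, 4 of the 8 genes (Ccl17, Cd209a, Tppp3 and Ifitm1) were at least 2-fold lower in the knockout than in Ccr2-negative wild-type cells, where 1.93% of 7360 genes with a mean of at least 10 CPM were. Ccl17 lay below that minimum here too. Fn1 was higher, 19.8 against 2.52 CPM, from 58 UMIs in 22 cells and 12 UMIs in 8 cells. Without the cells of other types Fn1 was at 5.06 (2.76 to 8.48) against 1.11 CPM (0.360 to 2.58), from only 14 and 5 UMIs.

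**Figure D3:**
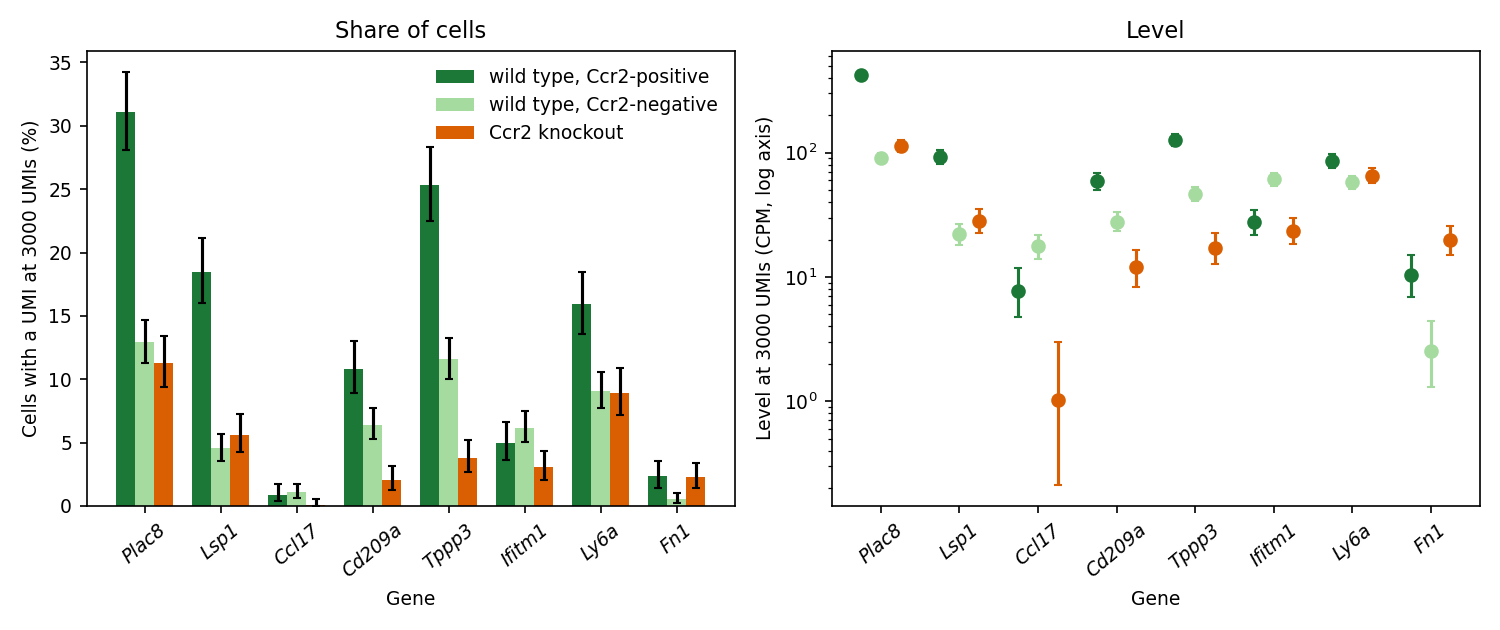
Ccr2-positive and Ccr2-negative wild-type cells and knockout cells, all thinned to 3000 UMIs: share of cells with a UMI of each gene (left, %, bars from 0 with 95% Clopper-Pearson intervals) and level (right, CPM on a log axis with 95% Poisson intervals). For Plac8 and Lsp1 the knockout lies close to the Ccr2-negative cells, and for Cd209a, Tppp3, Ifitm1 and Ccl17 it lies below them.

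How pure the Ccr2-negative group is depends on the depth of the call, so the call was repeated at 1000, 3000 and 6000 UMIs on the same 1552 wild-type cells with at least 6000 UMIs. Over this series the negative group shrank from 1215 to 943 to 797 cells. Plac8 in the negative cells went from 173 to 128 to 96.2 CPM, Lsp1 from 45.8 to 28.5 to 22.8 CPM, and Tppp3 from 68.3 to 53.2 to 46.4 CPM. Their levels in negative cells were thus lower the deeper the call.

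Ifitm1 in the negative cells went the other way, from 65.4 to 76.0 to 78.2 CPM. Ly6a was at 74.6, 73.0 and 69.8 CPM, from 544, 413 and 334 UMIs. The lane 2 cells with 249 Ly6a UMIs and 116 Ifitm1 UMIs had no Ccr2 UMI, so both were in the negative group at each depth. The series without them was not computed, so whether Ly6a in the other negative cells fell with deeper calls was not tested. Cd209a had 37.3, 29.5 and 29.9 CPM. Ccl17 had 19.3, 18.2 and 8.37 CPM. The cell with 100 Ccl17 UMIs had 2 Ccr2 UMIs among its 11004, so its side of the split hangs on the draw. Only 100 knockout cells reached 6000 UMIs. At that depth the ratios to Ccr2-negative cells differed widely: Cd209a had a log2 ratio of 0.0045 and Ifitm1 of 0.65, and Ccl17 alone was at least 2-fold lower.

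**Figure D4:**
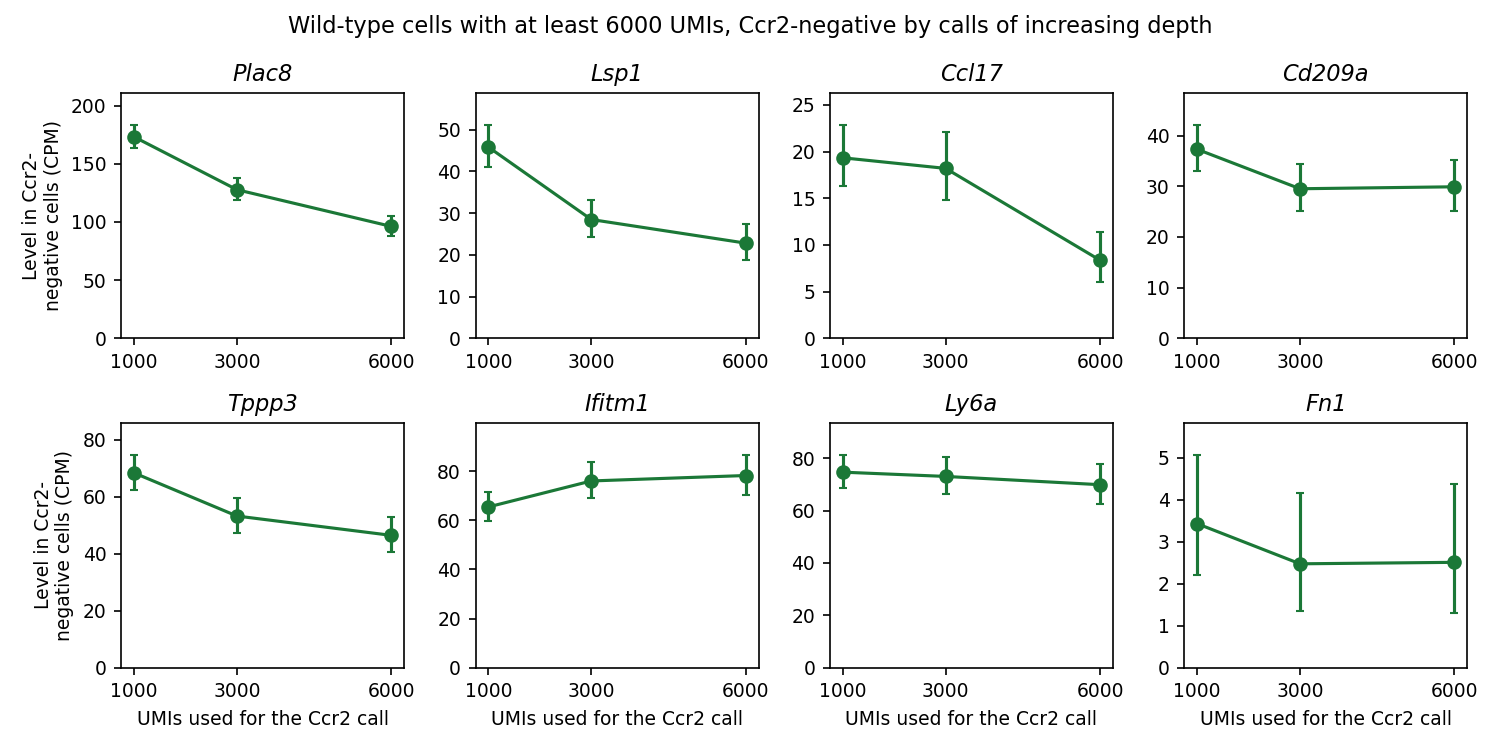
Level (CPM, axes from 0) of each gene in wild-type cells called Ccr2-negative from 1000, 3000 or 6000 UMIs, for the 1552 cells with at least 6000 UMIs; bars are 95% Poisson intervals. Plac8, Lsp1 and Tppp3 are lower with each deeper call, while Ifitm1 is higher and Ly6a differs little. At each depth the negative cells include single cells with 116 Ifitm1 and 249 Ly6a UMIs before thinning.

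The genes were not all detected in the same cells. In wild type, 107 cells had both Plac8 and Lsp1 where the product of their shares gives 46.6, and 42 had Lsp1 and Cd209a where it gives 19.2. Tppp3 and Lsp1 shared 70 cells against 39.6, and Plac8 and Cd209a 62 against 39.0. Ifitm1 shared 28 cells with Plac8 against 27.9, 25 with Tppp3 against 23.7 and 10 with Lsp1 against 13.7. It shared more with Ly6a, 22 against 16.5, and with the rarely detected Ccl17, 5 against 1.43, and Fn1, 3 against 1.66. Ly6a and Cd209a shared 20 against 23.1.

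In the knockout the pairs differed. Plac8 and Lsp1 still shared cells, 19 against 6.19 given by their shares, and so did Lsp1 and Cd209a, 8 against 1.13. But Ifitm1 was now found with Fn1 in 7 cells against 0.676, with Tppp3 in 7 against 1.14 and with Plac8 in 14 against 3.38. Of the 25 knockout cells with at least 3 of the 8 genes, 12 passed the fibroblast or endothelial cut, against 5 of 129 in wild type. Among all cells at this depth, 5.18% in wild type and 2.56% in the knockout had at least 3 of the genes, and Ccr2 was found in 72.9% of the former.

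A narrower group, cells with at least 2 of Plac8, Lsp1 and Cd209a, was formed after these values were seen. It held 159 of 2492 wild-type cells (6.38%, interval 5.45 to 7.41) and 21 of 977 knockout cells (2.15%, 1.34 to 3.27). Only 1 cell of each library's group passed the fibroblast or endothelial cut. The complement genes C1qa, C1qb and C1qc, typical of mature macrophages, summed to 7348 CPM in the wild-type group against 12636 in the other wild-type cells, and to 2746 against 9063 CPM in the knockout. Cells that combine these genes made up a smaller share of the knockout library but were present in it. The 3 genes had been picked as lower in the knockout, so the smaller share is a description and no separate result.

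**Figure D5:**
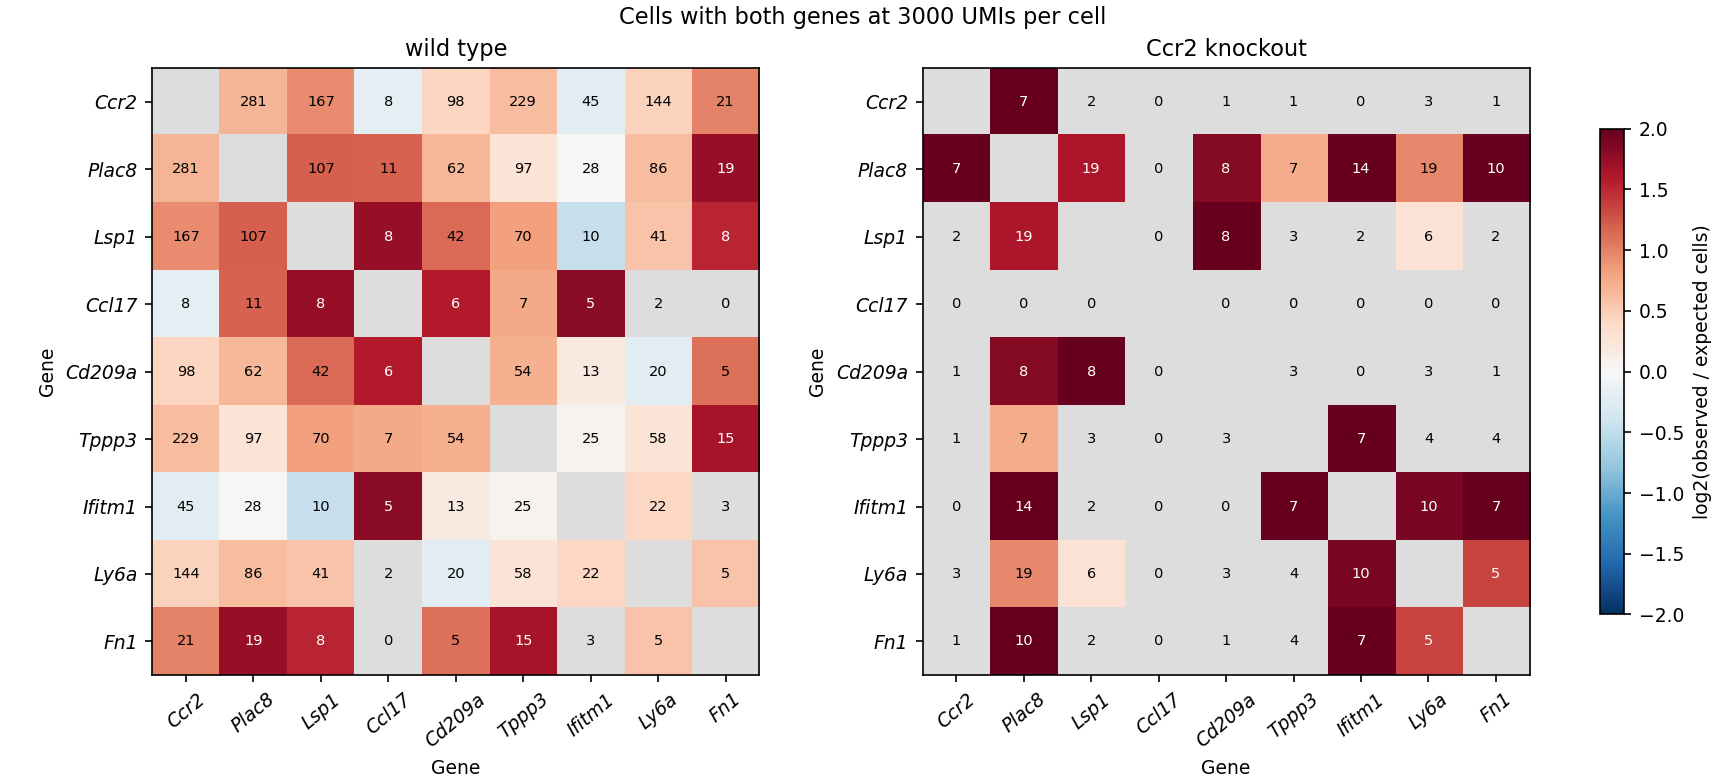
Number of cells with both genes of a pair (in the squares) in wild type and the knockout at 3000 UMIs per cell; colour is the log2 of observed over expected cells from the product of the 2 shares, and grey marks fewer than 5 cells. Wild-type Plac8 and Lsp1 share 107 cells, and in the knockout Ifitm1 shares 7 cells each with Fn1 and Tppp3; colours are capped at 2 in either direction.

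Among the genes outside the list, those detected most like Ccr2 in both wild-type lanes were Tmsb10, Crip1, Tagln2, Ccl6 and Clec12a. Their phi coefficients with Ccr2 detection, over cells that share library and depth, were 0.298 to 0.225 in the lane with the smaller value. Of 8098 genes ranked this way, Plac8 stood at 8, Lsp1 at 10 and Tppp3 at 12, Ly6a at 70, Cd209a at 290 and Ifitm1 at 4834. Tmsb10, which binds actin monomers, and Clec12a, an inhibitory lectin of myeloid cells, were at 868 and 40.2 CPM in wild type and 330 and 18.2 CPM in the knockout.

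Of 19 other monocyte genes listed, 12 were abundant enough to compare. Napsa (21.4 and 6.33 CPM), Ms4a4c (79.1 and 27.7), S100a10 (61.0 and 22.7), Ifitm3 (1325 and 583) and Ifitm2 (507 and 239) were at least 2-fold lower in the knockout, and F13a1, the coagulation factor XIII subunit, was higher (21.1 and 61.1). The list's median log2 ratio was -0.60, beside 0.18 for all genes, of which 3.12% were lower and 9.04% higher by that much. Ly6c2, a marker of classical monocytes, was at 4.35 and 4.68 CPM, low in both libraries of this Ly6C-negative sort. Of 13 tested genes of mature macrophages, 5 were at least 2-fold higher (Timd4, Cd163, Mertk, Cd4 and Mrc1) and C1qb was lower, with a median of 0.72. The others differed by less than 2-fold on the log2 scale. Fcgr1 (-0.996), C1qa (-0.76) and Apoe (-0.61) were lower, and Csf1r (0.82), Cx3cr1 (0.72), C1qc (0.19) and Adgre1 (0.08) higher. Of 7 tested dendritic cell genes, Mgl2 alone was 2-fold lower, and their median was 0.11.

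Relatives of the genes did not all follow them. Ifitm3 and Ifitm2 were lower like Ifitm1 but were found in most cells, 92.7% and 67.0% of Ccr2-positive and 80.1% and 73.9% of Ccr2-negative cells. Cd209b, another lectin of the Cd209 cluster, was at 25.2 and 14.5 CPM. It was less often detected in Ccr2-positive (3.43%) than in Ccr2-negative cells (7.49%), the reverse of Cd209a. Cd209b was nevertheless among the 5 genes detected most like Cd209a in wild type (phi coefficients 0.101 in lane 1 and 0.138 in lane 2). Ccl22, the other ligand of CCR4, was at 7.45 and 4.96 CPM. Ly6c1, a Ly6 gene of endothelium, was at 0.145 CPM in wild type and 23.8 in the knockout, beside the endothelial genes given above. Of the fibronectin receptor subunits, Itga4 and Itgb1 were at 126 and 158 CPM in wild type and 88.4 and 117 in the knockout, and Itgav was higher in the knockout (86.2 and 176). Members of the Ly6, Ifitm and Cd209 families resemble each other in sequence, and the treatment of reads shared between them is not given in the sources used here.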

How the data were processed

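The authors deposited UMI counts per gene and cell for 1 wild-type and 1 Ccr2 knockout library of sorted small intestinal macrophages. Per the submitters' processing notes, these counts were made with Cell Ranger 3.0.1 and the mm10 genome build; the gene annotation and the rule for calling cells are not given in the sources used here. The gene and barcode tables deposited with them hold other entries, names only. The cell filter asked for at least 200 genes and no more than 10% of UMIs from mitochondrial genes, and doublets were left in. Levels are UMIs of a gene over all UMIs of the cells, in CPM, with exact Poisson intervals at 95%, and log2 ratios use a pseudocount of 1 CPM. Shares of cells come from random thinning without replacement to 1000 UMIs (both libraries) or 3000 UMIs (Ccr2 split), with exact Clopper-Pearson intervals. These intervals cover counting error only. With 1 library per genotype no p-value was computed, and cells and lanes were not treated as replicates. The sums and the thinning were tested on simulated data.

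The 8 genes and the gene lists were chosen with earlier results of these data known. The marker cut for other cell types, the motifs and the cell group built from Plac8, Lsp1 and Cd209a were chosen after the data were seen. Genes named besides the 8 are Ccr2, those of the lists, and the 5 genes detected most like Ccr2 by the smaller phi coefficient of the 2 lanes. Alternatives were another pseudocount, median-of-ratios scaling, stricter and no cell filters, removal of the highest doublet scores (Scrublet in scanpy 1.11.5, 0.8% per 1000 cells), lymphoid cells left out, a window of 2000 to 4000 UMIs, single lanes, other thinning depths and another seed. Python 3.11.15, numpy 2.4.6, scipy 1.17.1 and pandas 2.3.3 were used.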

Additional observations from a re-analysis of the deposited data

How the results depend on the processing

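The number of genes at least 2-fold lower in the knockout over all cells was 4 and lay between 2 and 6 over 12 alternatives: it was 2 (Cd209a and Tppp3) with a pseudocount of 10 CPM, 5 with median-of-ratios scaling (Lsp1 added) and 6 without cells of other types, which was tried only once the data were known. The number more often detected in Ccr2-positive cells was 4, and 4 to 5 over 15 alternatives, not always of the same genes: at 1000 UMIs Fn1 (0.85) left and Ly6a (1.14) joined. The log2 ratio of detection of Ccl17 was -0.23 but 1.06 with no cell filter, 0.83 without thinning, 0.48 at 6000 UMIs and 0.32 with another seed, so its sign depends on the draw. The number at least 2-fold lower than in Ccr2-negative cells was 4, and 1 to 4 over 17 alternatives; it was 1 when thinned to 6000 UMIs, which left 100 knockout cells, and there Cd209a (0.0045) and Ifitm1 (0.65) turned. Over all cells, log2 ratios of knockout to wild type ranged from -2.89 to -0.29 for Ccl17, from 0.19 to 1.98 for Fn1 and from -0.94 to 0.78 for Ly6a, the last value in cells with 2000 to 4000 UMIs, where Plac8 reached -2.05. Without a minimum level, 2.0% of 17077 genes were at least 2-fold lower. The knockout's depth limits Ccl17 (20 UMIs) and Cd209a (72 UMIs) most. No paired analysis was possible because each genotype has 1 library.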

Other observations

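Partners of each gene were also sought among all genes detected in at least 2% of wild-type cells at 3000 UMIs, by the same phi coefficient and with names chosen after their values were seen. Lsp1 was detected most like Napsa, an aspartic protease (0.228 in lane 1 and 0.272 in lane 2), and Tppp3 most like Vim, the intermediate filament vimentin (0.199 and 0.222). Ly6a was detected most like Ms4a4c (0.179 and 0.149), and Irf7, an interferon response factor, came next (0.115 and 0.180). Ifitm1 had no coefficient above 0.0861 in either lane among its 5 closest genes. These coefficients are low and share library and depth.

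In the knockout, 15 of 977 cells had a Ccr2 UMI at 3000 UMIs, and 7 of them also had Plac8 where the product of the shares gives 1.69.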
